A study of Mus musculus with 3 samples.

Results

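The collagen-rich mesenchymal cells of 2 kinds of mouse thymus culture are described here, namely organoid reaggregate fetal thymic organ cultures (ORFTOCs) and fetal thymic organ cultures (FTOCs). The cells were chosen by measured values, so the values used for the choice are no finding. A barcode was kept as a cell when it held at least 600 genes, between 0.4% and 10% of its unique molecular identifiers (UMIs, counted transcript molecules) on mitochondrial genes, and at least 10 hashtag UMIs of which at least 80% came from a single hashtag antibody. A cell was called collagen-rich when Col1a1, Col1a2 and Col3a1 together made up at least 1% of its gene UMIs and it held at most 1 UMI of Epcam and at most 1 of Ptprc, the marker genes of epithelial and blood cells. These limits left 280 collagen-rich cells of 9349 cells in all.

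ORFTOCs were reaggregates of thymic epithelial cells grown as organoids from E16.5 thymi, an EpCAM-depleted cell suspension of E13.5 thymi and wild-type mouse embryonic fibroblasts (MEFs), whereas FTOCs were intact E13.5 thymic lobes with no added cells. All cells were of wild-type (WT) genotype with no treatment, and both kinds of culture were kept in the same FGF7-containing medium and dissociated after 13 days. For each kind, 2 cultures were mixed into 1 pool and marked with 1 hashtag antibody (HTO_2 for ORFTOC, HTO_1 for FTOC), and both pools were run together on 1 lane. Each pool is therefore 1 sample with no replicate, so no test between pools was possible, and the intervals given are exact 95% intervals that cover counting error only. The MEFs carried no mark of their own, so mesenchymal cells of MEF origin and those of thymus origin cannot be told apart by the labels.

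Thymic mesenchyme forms the capsule, the septa and the sheath of the vessels of the thymus. Its fibroblasts secrete fibrillar collagens, proteoglycans and growth factors such as FGF7 and FGF10, on which thymic epithelium depends for its growth. Pericytes and smooth muscle cells, together called mural cells, wrap the vessels and share several collagen genes with fibroblasts. Type I collagen is a heterotrimer of the chains encoded by Col1a1 and Col1a2, type III collagen is a homotrimer of the Col3a1 chain, and both assemble into the fibrils of loose connective tissue.

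To show the regulatory sequence just before genes that defined the cells, the 250 bases before the annotated start of Col1a2 and Col3a1 were copied from RefSeq (GRCm38.p6, the mm10 genome of the deposited files). The Col1a2 window lies at chr6:4505368-4505617 and the Col3a1 window at chr1:45311288-45311537, both on the plus strand. Capitals mark matches to CCAAT or TATAAA on either strand.
Col1a2: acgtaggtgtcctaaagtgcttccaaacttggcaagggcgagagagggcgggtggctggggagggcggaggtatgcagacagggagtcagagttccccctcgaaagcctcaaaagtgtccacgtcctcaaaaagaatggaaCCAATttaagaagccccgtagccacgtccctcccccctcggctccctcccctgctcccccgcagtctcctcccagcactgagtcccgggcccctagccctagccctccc
Col3a1: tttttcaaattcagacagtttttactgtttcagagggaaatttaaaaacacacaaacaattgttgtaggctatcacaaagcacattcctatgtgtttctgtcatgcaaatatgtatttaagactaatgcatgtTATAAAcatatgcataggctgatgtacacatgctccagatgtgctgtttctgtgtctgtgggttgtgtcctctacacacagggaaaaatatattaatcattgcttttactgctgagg
The Col1a2 window held CCAAT beginning 109 bases before the start, and the Col3a1 window held TATAAA beginning 117 bases before it. Among 32851 windows of the same length in the same table, 33.8% held CCAAT or its reverse complement ATTGG and 12.4% held TATAAA or its reverse complement TTTATA. A match describes these letters only and is no evidence of a bound factor.

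Pdgfra, the receptor that marks many fibroblasts, and Dcn, a small proteoglycan of the collagen fibril, were not used by the rule and were checked as markers of the label. Pdgfra was detected in 265 of the 280 cells (94.6%) and Dcn in 276 (98.6%), at a median of 20757 UMIs per cell. In the 2415 cells with at least 2 Epcam UMIs, with a median depth of 12700 UMIs, Pdgfra was detected in 2.69% and Dcn in 9.11%. In the 3693 cells with at least 2 Ptprc UMIs (median depth 6720 UMIs) the shares were 0.460% and 1.33%. The label therefore held for nearly every cell by both independent markers. Near the limit, 10 cells had a collagen share between 1% and 1.1%, of which 9 held Pdgfra and 10 held Dcn. The 13 cells just outside, between 0.9% and 1%, held Pdgfra in 12 and Dcn in 13. The collagen share ran on without a gap there, and 80 cells in all lay between 0.5% and 1%. Of the cells above the collagen limit, 22 were left out for their Epcam or Ptprc UMIs.

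Markers of most other mesodermal types were low. Dpp4, which marks an outer fibroblast layer, had 1 UMI in 1 ORFTOC cell, and Lepr, a marker of marrow stroma, had none in any of the 280 cells. Endothelial, mesothelial, skeletal muscle, cartilage and bone, and tendon lists had no gene at a mean level over both pools of 50 CPM (UMIs per 1000000 gene UMIs of the summed cells) or more. Summed over its genes, the endothelial list had 12.8 CPM in ORFTOC and 23.0 in FTOC, the mesothelial list 8.89 and 1.28, and the skeletal muscle list 1.11 and 0. Cartilage and bone genes summed to 63.6 and 67.9 CPM and tendon genes to 56.3 and 35.9. Fat cell genes were higher, at 530 CPM in ORFTOC and 894 in FTOC against 186 in all other cells. Of the 7 fat cell genes, 1 passed the limit of 50 CPM, and it was within 2-fold between the pools. Markers of other classes were present in few cells. At least 10 UMIs of an epithelial, airway secretory, lymphoid, macrophage or parathyroid marker list were found in 24 of 233 ORFTOC cells, most often of airway secretory markers (14 cells) or lymphoid markers (9 cells), and in 3 of 47 FTOC cells. Values without these cells are given below for some genes.

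Collagen-rich cells were more frequent in ORFTOCs. ORFTOCs gave 233 such cells among 5237, or 4.45% (3.91% to 5.04%). FTOCs gave 47 among 4112, or 1.14% (0.841% to 1.52%). ORFTOC cells thus made up 83.2% (78.3% to 87.4%) of the collagen-rich cells, against 56.0% of all cells, 58.6% of the Epcam cells and 53.0% of the Ptprc cells. The intervals of the shares do not overlap, but MEFs were added to ORFTOCs alone, and the number of cells put in and the survival of each type cannot be told apart. The share of ORFTOC cells was 89.0% when at least 90% of a cell's hashtag UMIs had to come from a single antibody. A median of 98.9% did so in ORFTOC collagen-rich cells and 92.3% in FTOC ones.

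The cells were among the deepest of the lane. They held 5397219 UMIs in ORFTOC and 780976 in FTOC, with a median of 21648 (968 to 60749) and 16877 (1681 to 39892) UMIs per cell, against 7738 and 5451 in the other cells of the same pools. The collagen-rich cells therefore gave 9.89% of all ORFTOC UMIs and 2.54% of all FTOC UMIs. The 3 genes of the rule made up a median of 2.27% of a cell's UMIs in ORFTOC (1.01% to 12.1%) and 2.02% in FTOC (1.09% to 7.76%), so the pools overlapped across nearly the whole range.

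**Figure D1:**
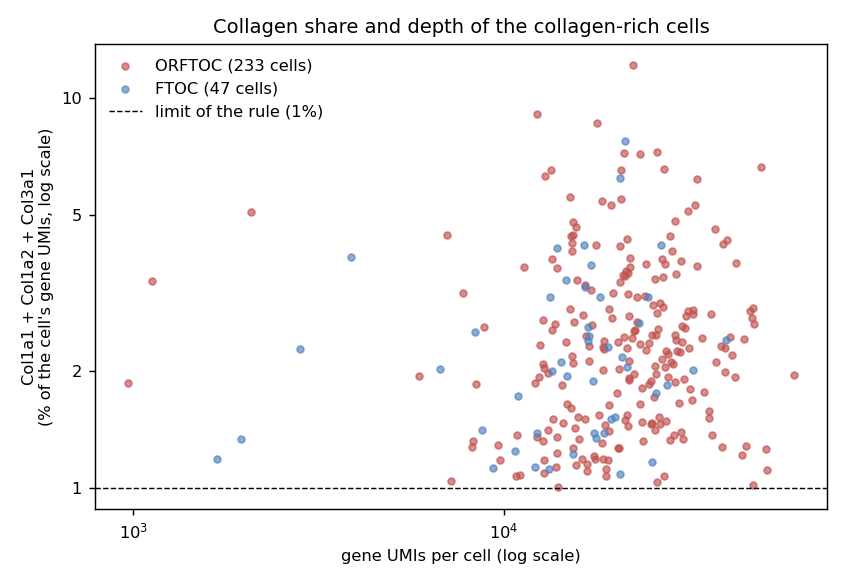
Each point is 1 collagen-rich cell, with its gene UMIs on the x axis (log scale) and the share of Col1a1, Col1a2 and Col3a1 in those UMIs on the y axis (percent, log scale), red for ORFTOC (233 cells) and blue for FTOC (47 cells). The dashed line is the 1% limit of the rule, and cells of both pools lie close above it and reach a share of 12.1% in ORFTOC and 7.76% in FTOC.

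Genes that set these cells apart from all other cells are given as a description, since the rule used 3 of them. Among genes with at least 200 CPM in the collagen-rich cells, the largest ratios belonged to Mmp3 (stromelysin, a matrix protease), Col1a1, Col1a2, Ogn, Col3a1, Mfap4, Mfap5, Meg3, Sfrp4 and Cd248, from 143-fold for Mmp3 to 65.3-fold for Cd248. Col1a1 had 9659 CPM against 96.5 in the other cells, and 88.6% of all its UMIs in cells of the lane came from the collagen-rich cells. Ogn and Mfap5, which encode a small proteoglycan and a microfibril protein, had 227 and 318 CPM and were found in 60.7% and 51.8% of the cells. Mmp3, with the largest ratio, was found in only 21.4% of them.

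To compare the pools, UMIs were summed over the collagen-rich cells of each pool and scaled to CPM, and genes with a mean of both pools of at least 50 CPM were compared. Of 3079 such genes, 53 (1.72%) were at least 2-fold higher in ORFTOC and 130 (4.22%) at least 2-fold higher in FTOC, and the median log2 ratio of ORFTOC over FTOC was -0.07. These shares are the background against which the counts of each gene group below were read. In each gene group, only genes past the same 50 CPM limit were compared. A gene that is high in 1 pool can pass this limit through that pool alone, so the counts and medians of the groups are descriptions.

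The 3 genes of the rule were high in every cell by choice, so nothing is read from their ratios between the pools. Col1a1 had 9867 CPM in ORFTOC and 8222 in FTOC, Col1a2 7027 and 6274, and Col3a1 9668 and 10230. Of 10 other fibrillar and associated collagens, which the rule did not use, 9 were within 2-fold, with a median log2 ratio of -0.22. The exception was Col8a1, a short-chain collagen. It had 130 CPM in ORFTOC and 15.4 in FTOC, with all 12 FTOC UMIs in a single cell. The chains of type VI collagen, which forms beaded filaments around cells, lay toward FTOC by less than 2-fold. Col6a1 had 2109 CPM in ORFTOC and 3441 in FTOC, and Col6a2 had 2471 and 3759. The 16 enzymes and chaperones that modify and fold collagen were all within 2-fold, with a median log2 ratio of -0.23. Serpinh1, the collagen chaperone, had 2455 and 2377 CPM, and Lox, which cross-links collagen and elastin, had 407 and 247.

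Basement membrane genes were lower in ORFTOC. All 11 of the list had a log2 ratio below 0, with a median of -0.87 against -0.07 for all genes compared, and 5 were at least 2-fold lower in ORFTOC while none was higher. Col4a1 and Col4a2, which encode the chains of the type IV collagen network, had 769 and 467 CPM in ORFTOC against 2111 and 1214 in FTOC, and the ratio of Col4a1 was 0.364 (0.344 to 0.386). Col18a1, the source of endostatin, had 103 and 384 CPM and the nidogen gene Nid2 52.6 and 181, while the laminin chain Lama2 had a log2 ratio of -1.43. The difference was not carried by single cells, since Col4a1 was found in 227 of 233 ORFTOC cells and 46 of 47 FTOC cells and no cell held more than 106 of its UMIs. Summed over the list, the median ORFTOC cell had 3058 CPM (483 to 10350) and the median FTOC cell 6635 (595 to 15636), so that the cells of the pools overlapped widely. Across 15 other ways of choosing or scaling the cells the median of the list stayed between -1.12 and -0.52. Cells past the mural gate described further on, with at least 5 UMIs over 6 mural genes, made up 74.5% of the FTOC and 28.8% of the ORFTOC cells. Without them, Col4a1, Col4a2 and Col18a1 were still at least 2-fold lower in ORFTOC, at log2 ratios of -1.67, -1.86 and -1.53, whereas Lama2 and Nid2 were within 2-fold, at -0.61 and -0.89. That setting leaves out 35 of the 47 FTOC cells. Ratios without the cells past the mural gate, here and below, thus rest on few FTOC cells. The cells kept could still hold some of these UMIs, since only 68 ORFTOC and 4 FTOC cells had none.

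Proteoglycans and glycoproteins of the matrix were mixed, with 22 of 25 genes within 2-fold and a median log2 ratio of 0.07. Dcn had 2895 CPM in ORFTOC against 5339 in FTOC (log2 ratio -0.88), and Bgn, its close relative, had 3829 and 2841. Aspn, another small proteoglycan, and Mfap4, a microfibril-associated glycoprotein, were the members at least 2-fold higher in ORFTOC. Aspn had 181 and 58.9 CPM, and Mfap4 had 735 and 232. Eln, which encodes elastin, was the member at least 2-fold lower in ORFTOC, with 448 and 1027 CPM, and lay at a log2 ratio of -0.81 when each cell was given equal weight.

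Among 11 matrix proteases and their inhibitors, 10 were within 2-fold. Timp3, a matrix-bound inhibitor of metalloproteinases, was the exception, with 392 CPM in ORFTOC and 42.3 in FTOC, a 9.27-fold ratio (6.58 to 13.5). It was found in 91 of 233 ORFTOC cells (39.1%) and 8 of 47 FTOC cells (17.0%), while the Epcam cells, which also make it, held it in 64.7%. Mmp2 and Mmp14, gelatinase A and its membrane-bound activator, were within 2-fold, at 585 and 621 CPM and at 598 and 830 CPM in ORFTOC and FTOC.

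**Figure D2:**
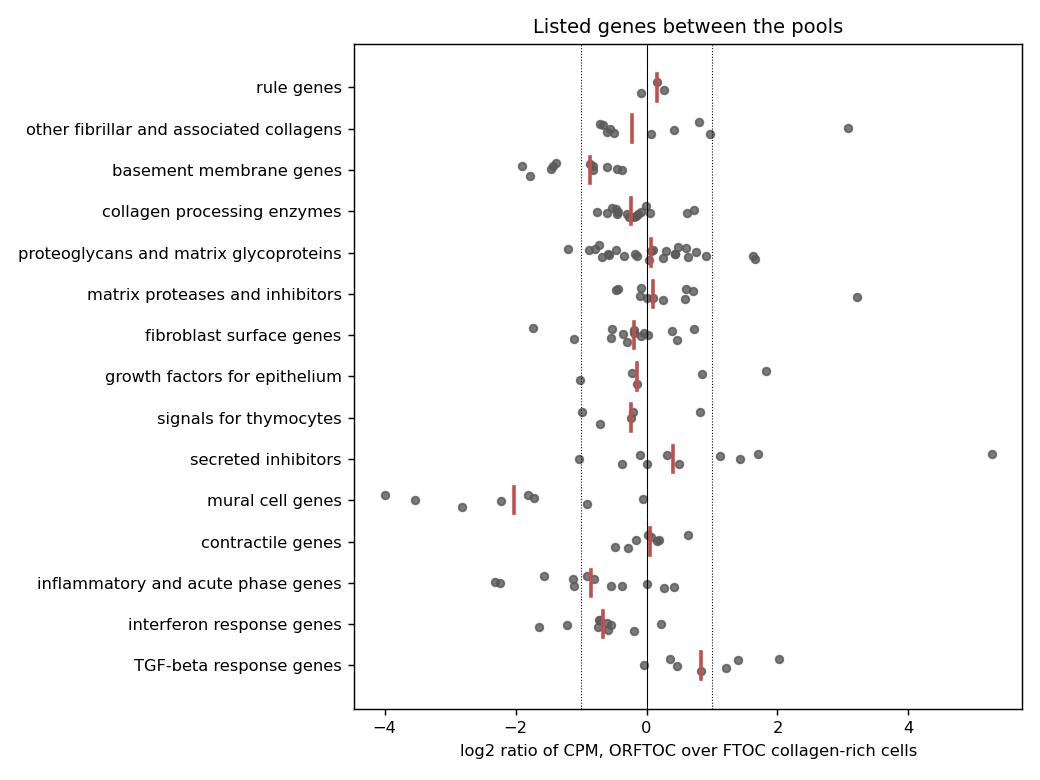
Each grey point is 1 gene, placed by the log2 ratio of its CPM in ORFTOC over FTOC collagen-rich cells on the x axis, within the gene lists named on the y axis, and each red bar is the median of a list. The dotted lines mark 2-fold. All 11 basement membrane genes and all 8 mural genes lie below 0, while the collagen processing enzymes lie within the dotted lines.

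Growth factors that act on thymic epithelium were mostly low, with 5 of 20 past the 50 CPM limit. Fgf7 had 47.4 CPM in ORFTOC and 96.0 in FTOC (log2 ratio -1.02), and the ratio was within 2-fold in 6 of 15 other ways of choosing or scaling the cells. Fgf10, below the limit, had 36 UMIs in ORFTOC (6.67 CPM) and 44 in FTOC (56.3 CPM), a ratio of 0.118 (0.0740 to 0.188). It was found in 12.4% of ORFTOC cells and 44.7% of FTOC cells, against 0.207% of Epcam cells and 0.108% of Ptprc cells. After every cell was thinned to 3000 UMIs these shares were 1.74% and 9.09%. Igf1 was within 2-fold, at 437 and 481 CPM, as was Igf2, at 451 and 250. Inhba, which encodes the activin A chain, had 119 and 33.3 CPM, but 22 of its 26 FTOC UMIs came from 1 cell. Its log2 ratio went from 1.83 to -0.65 when cells past the mural gate were left out.

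Signals for thymocytes and their precursors were within 2-fold in all 5 of 13 genes that could be compared. Ccl19, a chemokine that draws CCR7-bearing precursors, had 1285 CPM in ORFTOC and 727 in FTOC, and 1116 of its 6936 ORFTOC UMIs lay in a single cell. Cxcl12, which draws CXCR4-bearing precursors, had 219 and 357 CPM. Il7, the cytokine that sustains early thymocytes, had only 10.2 and 7.68 CPM against 176 in the Epcam cells, and Ccl21a had 0.926 and 20.5 CPM against 884 in the Epcam cells. The 2 were thus at low levels in collagen-rich cells of either pool, and 15 of the 16 FTOC UMIs of Ccl21a came from 1 cell.

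Secreted inhibitors of Wnt, BMP and IGF signals leaned toward ORFTOC by count, with 4 of 10 at least 2-fold higher there and 1 lower. Their median log2 ratio was 0.40. Summed over all 18 genes of the list, the pools were alike, at 10649 CPM in ORFTOC and 10911 in FTOC. Igfbp2 was found in 30 ORFTOC cells (149 CPM) and in no FTOC cell. With the FTOC sum set to 3 UMIs it was 38.8-fold higher, a size that depends on that floor. Igfbp6 had 534 and 164 CPM, but 104 of its 128 FTOC UMIs came from 1 cell. Its log2 ratio of 1.70 became 0.13 without the cells past the mural gate. It became 4.06 without the cells that held markers of other classes, so the size of the ratio depended on which cells were kept. Sfrp2, a secreted Wnt inhibitor, had 196 and 73.0 CPM, and Igfbp3, an IGF-binding protein gene, had 479 and 219. With a collagen limit of 2% both were within 2-fold, at log2 ratios of 0.83 and 0.82, as they were without the cells with Hox UMIs described below (0.94 and 0.90). Sfrp1, of the same family, had 189 and 385 CPM, and its log2 ratio of -1.03 became 0.47 without the cells past the mural gate. The largest members, Igfbp7 (4209 and 5480 CPM) and Igfbp4 (2195 and 2357 CPM), were within 2-fold.

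Among 14 mesenchymal transcription factors that could be compared, Prrx2 was at least 2-fold higher in ORFTOC, with 134 and 55.1 CPM, and Msx1 and Nr2f1 at least 2-fold lower. Msx1, a homeobox gene of cranial neural crest derivatives, had 76.7 and 178 CPM, and Nr2f1 had 74.5 and 157 CPM. The log2 ratio of Msx1 went from -1.21 to -0.17 without the cells past the mural gate, and Nr2f1 was within 2-fold under 7 of 15 alternatives. Twist1 and Prrx1, general mesenchymal regulators, were within 2-fold, at 122 and 87.1 CPM and at 214 and 236 CPM. Of 7 genes that respond to TGF-beta, 3 were at least 2-fold higher in ORFTOC and the median log2 ratio was 0.84. Across 15 other ways of choosing or scaling the cells, that median lay between 0.34, with a collagen limit of 2%, and 1.07. Tgfbi, an adhesive matrix protein, had 83.0 and 20.5 CPM, Ltbp2 136 and 58.9, and Cdkn1a, a cell cycle inhibitor, 183 and 69.1. Without the cells past the mural gate the log2 ratio of Cdkn1a was 0.22, and Ltbp2 was within 2-fold under 3 of 15 alternatives. The inflammatory and acute phase genes lay the other way, with 5 of 12 at least 2-fold lower in ORFTOC, none higher and a median of -0.85. Cxcl10, an interferon-induced chemokine, had 163 and 770 CPM, and Ccl11, the eotaxin gene, had 317 and 684. The log2 ratio of Ccl11 went from -1.11 to -0.30 without the cells past the mural gate, while that of Cxcl10 was -2.59. Lcn2, another member, had 98 of its 101 FTOC UMIs in 1 cell.

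Genes of the mural list were lower in ORFTOC. All 8 that could be compared were below 0, 6 of them at least 2-fold, with a median log2 ratio of -2.02. Of these, Abcc9, Kcnj8, Vtn, Rgs5 and Notch3 had under 50 CPM in ORFTOC and passed the limit through FTOC alone, so the count and the median are set in part by the limit. Among the 4 listed genes below the limit, Higd1b, Mcam and Rgs4 were also lower in ORFTOC, and Cspg4 was higher, at 16.9 and 2.56 CPM. Abcc9 and Kcnj8, which encode the subunits of the potassium channel of pericytes, had 41.1 and 46.5 CPM in ORFTOC against 289 and 218 in FTOC. Vtn, the vitronectin gene, had 15.9 and 255 CPM, and Rgs5, a pericyte regulator of G-protein signals, had 9.08 and 105. Rgs5 was also at 279 CPM in the Epcam cells, whereas Abcc9 and Kcnj8 were at 1.11 and 1.35 CPM there. Abcc9 was found in 83 of 233 ORFTOC cells (35.6%) and 40 of 47 FTOC cells (85.1%), against 0.455% of Epcam cells. At 3000 UMIs per cell the shares were 13.0% and 52.3%. Contractile genes, a separate list that includes the smooth muscle actin gene Acta2, did not share this difference. All 8 that could be compared were within 2-fold, with a median log2 ratio of 0.05. Under the other ways of choosing or scaling the cells that median lay between -0.81 and 0.57.

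To give both the share of cells with these genes and the level within them, a cell was counted past the mural gate when it had at least 5 UMIs over Rgs5, Kcnj8, Abcc9, Cspg4, Higd1b and Notch3. In ORFTOC 67 cells passed, or 28.8% (23.0% to 35.0%), and in FTOC 35 cells, or 74.5% (59.7% to 86.1%). In the Epcam cells, which hold Rgs5, 16.6% passed, and in the Ptprc cells 0.325%. At 3000 UMIs per cell, 33.0% of ORFTOC and 68.2% of FTOC cells had at least 1 UMI of these 6 genes, and the order of the pools was the same. Median depths of cells past the gate were 21716 UMIs in ORFTOC and 16984 in FTOC. Among cells past the gate, Abcc9 had 103 CPM in ORFTOC and 362 in FTOC, Vtn 44.4 and 306, and Col4a1 1024 and 2111. The pools thus differed in the share of cells past the gate and in the level of these genes within them. Abcc9 is itself a gate gene, and the fixed limit of 5 UMIs was applied at unequal depths. The differences in share and in level are therefore not independent of each other.

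**Figure D3:**
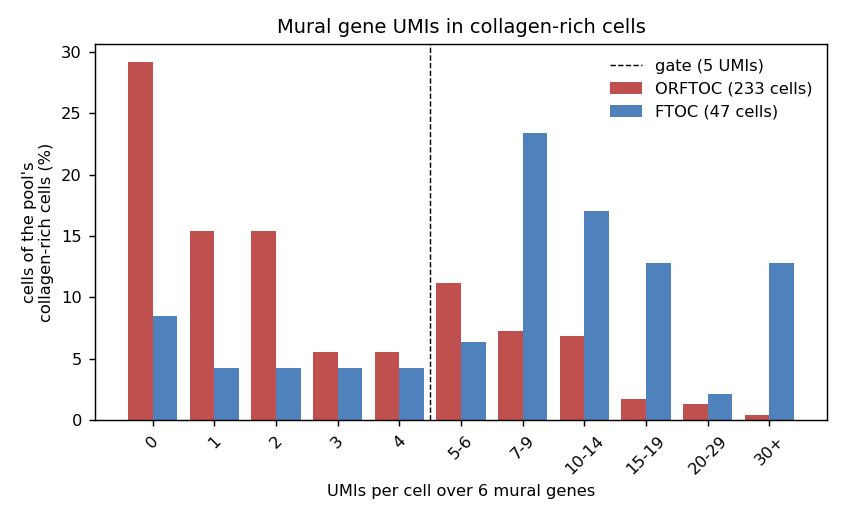
Bars give the share of each pool's collagen-rich cells (percent, y axis) by the number of UMIs a cell held over 6 mural genes (x axis), red for ORFTOC (233 cells) and blue for FTOC (47 cells), with the gate of 5 UMIs as a dashed line. In ORFTOC 68 cells had none of these UMIs, in FTOC 4 cells, and 74.5% of FTOC cells lie at or above the gate against 28.8% of ORFTOC cells.

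The cells past the gate, taken over both pools, were compared with the other collagen-rich cells as a description. Since 74.5% of FTOC and 28.8% of ORFTOC cells passed the gate, this comparison is mixed with the difference between the pools. Of 2991 genes compared, 52 (1.74%) were at least 2-fold higher and 18 (0.602%) at least 2-fold lower in cells past the gate. The 3 gate genes that could be compared were all among the higher ones, by choice of the gate. Outside the mural list, the largest ratios belonged to Ccl5, Ifitm1, Ccl19, Clu and Hp. Between the pools, Ccl5, Ifitm1 and Hp were higher in FTOC, at log2 ratios of -2.91, -1.64 and -1.07. Ccl19 and Clu were higher in ORFTOC. Ccl19 had 2335 CPM past the gate and 603 below it, and Clu, a secreted chaperone, had 563 and 166. For Ccl5, 65.2% of the UMIs past the gate came from 1 cell. Dcn was at 3321 CPM past it and 3140 below, and Col1a1 at 7629 and 10768. Ngfr, the p75 neurotrophin receptor, was also at least 2-fold higher past the gate, at 183 and 63.1 CPM, while Sox10, which defines Schwann cells, was not seen in any collagen-rich cell. Pdgfra had 375 CPM past the gate and 376 below it, and the cells past the gate are given no name of their own.

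The genes furthest apart between the pools were ranked over all 3079 genes compared. The 10 with the largest ratio toward ORFTOC were Spp1, Igfbp2, Reg3g, Mmp13, Timp3, Col8a1, Ptgis, Lgals3, Fibin and Asns. Spp1, which encodes the secreted phosphoprotein osteopontin, had 1090 CPM in ORFTOC against 26.9 in FTOC, a 40.5-fold ratio (26.5 to 65.5). Only 49 of 233 ORFTOC cells held any Spp1, and 1 of them held 2099 of the 5883 UMIs. Mmp13, a collagenase, was found in 13 ORFTOC cells (108 CPM) and no FTOC cell. With the FTOC sum set to 3 UMIs it was 28.1-fold higher, a size that depends on that floor. These levels were thus set by a small group of cells. Ptgis, Lgals3, Fibin and Asns were more widely spread, each in 112 to 140 ORFTOC cells. Ptgis, the prostacyclin synthase gene, had 142 and 19.2 CPM, and Lgals3, which encodes galectin-3, had 151 and 28.2. Reg3g, an epithelial secretory gene at 604 CPM in the Epcam cells, had 142 CPM in ORFTOC from 35 cells and 1 UMI in FTOC, and its log2 ratio fell from 5.21 to 1.86 without the cells that held markers of other classes.

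The 10 genes with the largest ratio toward FTOC were Ren1, Krt18, Vtn, Rgs5, Cox4i2, Ccl5, Aoc3, Abcc9, Inmt and Cd74. Ren1, the renin gene of juxtaglomerular and some vessel wall cells, was found in 10 of 47 FTOC cells (146 CPM, 50 of 114 UMIs in 1 cell) and in 1 of 233 ORFTOC cells (1.85 CPM). Of the 10 FTOC cells with Ren1, 8 were past the mural gate. Aoc3, the vascular adhesion protein gene, was found in 31 of 47 FTOC cells and 54 of 233 ORFTOC cells, at 118 and 16.7 CPM. Cox4i2, which encodes a cytochrome oxidase subunit, had 119 and 10.7 CPM, and Inmt, a methyltransferase gene, 128 and 18.5. Krt18, Ccl5 and Cd74 rested on single FTOC cells, which held 99 of 101, 324 of 346 and 203 of 224 of their UMIs. Without the richest cell of each pool their log2 ratios were 0.02, 0.71 and 0.41, so these 3 genes did not differ by 2-fold in the rest of the cells.

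Among ORFTOC cells, expression varied most for genes that a minority of cells held at high levels. After thinning to 3000 UMIs per cell, which left out 3 cells in each pool, the variance of Spp1 was 114 times its mean, 199 of 230 ORFTOC cells had no UMI and 1 cell had 233. Ccl19 (63.1 times), Saa3 (48.8), Mmp13 (29.8), Mmp3 (28.5) and Igfbp2 (28.4) followed, along with the ribosomal RNA-overlapping Gm42418 (47.5). Mgp, Apoe and Acta2 completed the 10 most variable genes. In FTOC the list was led by Ccl5 (42 of 44 cells without a UMI), Gm42418 (72.3 times) and Saa3 (64.8), and Saa3, Mmp3, Acta2 and Gm42418 were in both lists.

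Hox genes record the position of mesenchyme along the body axis, with low paralog groups in the pharyngeal region and higher groups in the trunk and limbs. UMIs were summed over all clusters for each paralog group. Groups 2, 3 and 4 were present in both pools, at 34.6, 23.9 and 28.9 CPM in ORFTOC and 26.9, 29.5 and 37.1 CPM in FTOC, with overlapping intervals. Groups 6, 7, 9 and 10 had 28, 35, 73 and 42 UMIs in ORFTOC collagen-rich cells and 0, 0, 1 and 0 in FTOC ones. The intervals of the pools were apart for groups 9 and 10 and overlapped for groups 6, 7 and 11. In ORFTOC, group 9 had 13.5 CPM (10.6 to 17.0) against 1.28 (0.0324 to 7.13) in FTOC, and group 10 had 7.78 CPM (5.61 to 10.5) and 0 (0 to 4.72). Group 8 was found in both, since Hoxd8 had 106 UMIs in ORFTOC (19.6 CPM) and 15 in FTOC (19.2 CPM).

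**Figure D4:**
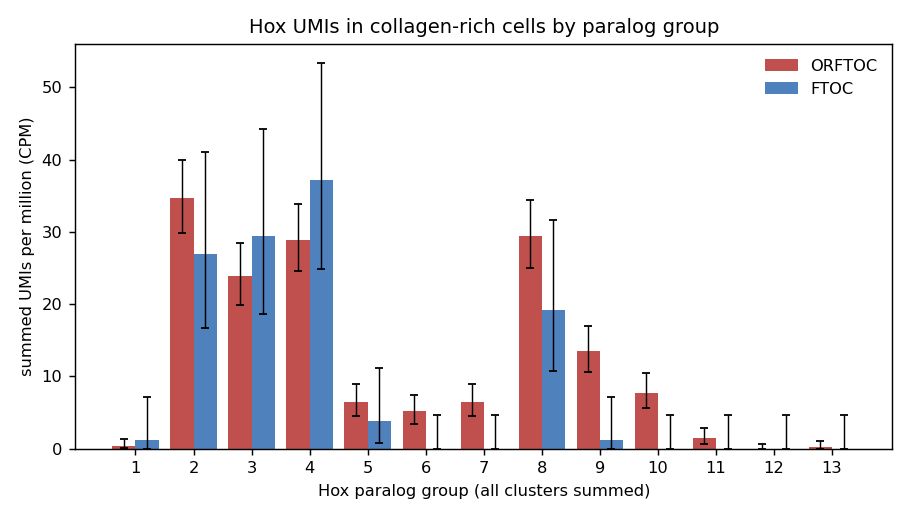
Bars give the summed CPM (y axis) of the Hox genes of each paralog group (x axis) in ORFTOC (red) and FTOC (blue) collagen-rich cells, with exact 95% Poisson intervals that cover counting error only. Groups 2 to 4 are at like heights, whereas groups 6, 7 and 9 to 11 have UMIs in ORFTOC and 1 UMI in all in FTOC.

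The cells that held the higher groups were then set apart, by a gate chosen after these values were seen. It counts a cell with at least 1 UMI of the 23 Hox genes of groups 6 to 13 other than Hoxd8. In ORFTOC the gate took 43 cells, or 18.5% (13.7% to 24.0%), and in FTOC 1 cell, or 2.13% (0.0539% to 11.3%). Hoxd8, seen in both pools, was left out after its values were known, so the low FTOC count is set in part by the gate. A UMI of group 8, Hoxd8 included, was found in 78 ORFTOC and 10 FTOC cells. The ORFTOC cells held 240 such UMIs (44.5 CPM), led by Hoxc8 with 34, Hoxc10 with 28 and Hoxb9 with 27, and the FTOC cell held 1, of Hoxd9. In the Epcam cells, at median depths of 13066.5 and 12299 UMIs, 1.48% (ORFTOC) and 1.30% (FTOC) had such a UMI. Of the 43 ORFTOC cells, 35 held at least 2 of these UMIs and 29 held them from at least 2 Hox clusters. At 3000 UMIs per cell, such a UMI was held by 15 of 230 cells in ORFTOC (6.52%, 3.70% to 10.5%) and by 0 of 44 in FTOC (up to 8.04%), so at that depth the pools' intervals overlap.

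The 43 ORFTOC cells with a higher Hox UMI were compared with the other 190 ORFTOC cells. They were slightly deeper, with medians of 24221 and 21321.5 UMIs, and the part of depth in which cells showed a Hox UMI was not tested. Of 2915 genes compared, 93 (3.19%) were at least 2-fold higher and 36 (1.23%) at least 2-fold lower in the cells with Hox UMIs. Contractile genes were higher, with 6 of 8 at least 2-fold and a median log2 ratio of 1.48. Acta2, the smooth muscle actin of myofibroblasts, had 2944 CPM against 703, and Tagln had 2951 against 669. The genes with the largest ratios were Mmp13, Spp1, Fmod, Ube2c, Crabp1, Fndc1, Col8a1, Fabp5, Actg2, Mki67, Timp3 and Col11a1. Spp1 had 3835 CPM against 326, Timp3 1122 against 189, Col8a1 388 against 57.8 and Mmp13 470 against 7.11. The ORFTOC cell richest in Spp1, described above, was among the 43 cells, so their Spp1 level rested in large part on that cell. Crabp1, a retinoic acid-binding protein, had 622 against 92.6, and Col12a1, a collagen of dense connective tissue, 623 against 154. Their median collagen share was 3.15% against 2.20%. Of 12 cell cycle genes, 4 could be compared (Ube2c, Mki67, Top2a and Cdk1), and all 4 were at least 2-fold higher, with a median log2 ratio of 2.25. All 4 had under 50 CPM in the other cells and so passed the limit through the cells with Hox UMIs alone. Ube2c, which acts in mitotic exit, had 184 CPM against 22.3 and was found in 5 of the 43 cells, with 91 of 216 UMIs in 1 cell. Mki67, a marker of dividing cells, had 108 CPM and a log2 ratio of 2.59.

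The genes lowest in the cells with Hox UMIs relative to the others were Hp, Clu, Sparcl1, Hsd11b1, Msx1, Ifitm1, Des, Cd34, Ltbp4, Clec3b, Ccl11 and Cxcl13. Sparcl1, a matricellular gene of vessel-associated fibroblasts, had 124 CPM against 530, Msx1 23.0 against 91.7 and Cd34 114 against 385. Pdgfra was alike, at 330 and 362 CPM, and the mural gate took 27.9% and 28.9% of the cells. Several of the genes furthest apart between the pools were therefore carried in part by these 43 cells. Without them, the log2 ratio over FTOC was 1.91 in place of 3.08 for Col8a1, 2.16 in place of 3.21 for Timp3 and 3.60 in place of 5.34 for Spp1, and Mmp13, at 7.11 CPM in the other ORFTOC cells, lay at 0.89 against the FTOC floor of 3 UMIs. Ptgis and Lgals3 went the other way, with higher levels in the ORFTOC cells without Hox UMIs (157 and 164 CPM) than in those with them (91.9 and 104 CPM). The count of genes at least 2-fold higher in ORFTOC was 42 without the 43 cells and 53 with them, and the basement membrane and mural genes kept their direction.

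**Figure D5:**
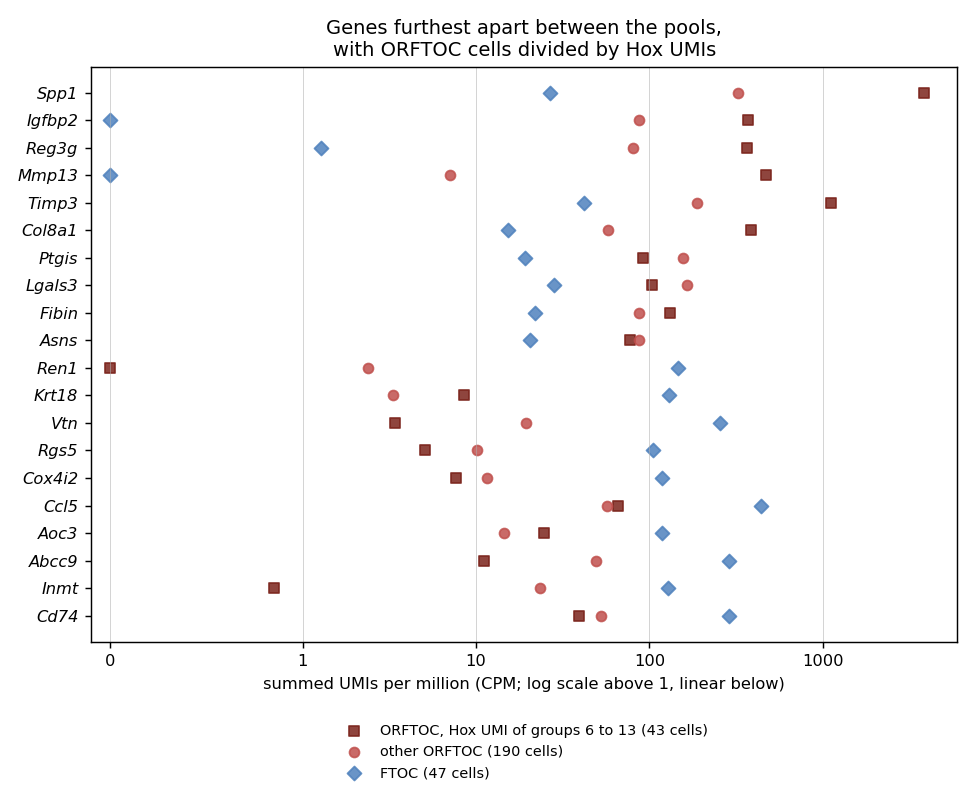
Points give the summed CPM (x axis, log scale above 1) of the 20 genes furthest apart between the pools (y axis). Dark squares are the 43 ORFTOC cells with a Hox UMI of groups 6 to 13 other than Hoxd8. Red circles are the other ORFTOC cells (190 cells) and blue diamonds the FTOC cells (47 cells). Spp1, Mmp13, Timp3 and Col8a1 are highest in the cells with Hox UMIs, whereas Ptgis and Lgals3 are highest in the other ORFTOC cells.

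Sex-linked genes gave a further split of the ORFTOC cells that did not use the Hox genes. Among the 233 ORFTOC cells, 108 held Xist and no UMI of the Y-linked genes, 104 held Y-linked UMIs and no Xist, 5 held both and 16 held neither. Of the 47 FTOC cells, 42 held Xist alone, 5 held neither and 0 held Y-linked UMIs alone (up to 7.55%). The other cells of the FTOC pool were alike, with 6 of 4065 (0.148%) holding Y-linked UMIs alone, against 33.4% of the other ORFTOC cells. ORFTOC collagen-rich cells thus included cells of both patterns whereas the FTOC cells held almost no Y-linked UMIs, and the pools as a whole differed in these patterns.

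Within ORFTOC, 11 of the 108 cells with Xist alone had a higher Hox UMI, or 10.2% (5.20% to 17.5%), and 29 of the 104 cells with Y-linked UMIs alone, or 27.9% (19.5% to 37.5%), at median depths of 21225 and 23435.5 UMIs. Of 2903 genes compared between these cells, 12 (0.413%) were at least 2-fold higher with Xist alone and 14 (0.482%) with Y-linked UMIs alone. Xist and the Y-linked genes set these groups, so any of them among the counts are there by choice. When only ORFTOC cells with Xist alone were set against FTOC, 52 genes were at least 2-fold higher in ORFTOC and 116 in FTOC, against 53 and 130 over all cells. The median log2 ratio was then -0.95 for the basement membrane genes and -1.71 for the mural genes, against -0.87 and -2.02. The log2 ratio of Spp1 was then 3.05 and that of Mmp13 0.89.

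Cell division was rare among the collagen-rich cells. At least 10 UMIs over 12 cell cycle genes were seen in 6.87% of the ORFTOC cells (16 cells, 3.98% to 10.9%) and in 1 FTOC cell (2.13%, 0.0539% to 11.3%). At 3000 UMIs per cell, at least 3 such UMIs were found in 4.35% and 4.55%, and no difference was detectable at this depth. In ORFTOC, 5 of the 43 cells with higher Hox UMIs and 11 of the other 190 passed the limit of 10 UMIs, or 11.6% (3.89% to 25.1%) and 5.79% (2.93% to 10.1%).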

How the data were processed

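The authors sequenced gene expression, T cell receptor and hashtag libraries of 1 droplet 5′ lane and deposited unfiltered UMI counts per gene and barcode, aligned to mm10 with Cell Ranger 6.1.2 per the labels, although the matrix header names Cell Ranger 4. Hashtag counts are in the same deposited matrix. Of 705161 barcodes with 103984163 UMIs, 10910 held at least 600 genes, 10245 were also within the mitochondrial limits and 9349 were assigned to 1 hashtag. Barcodes with hashtag UMIs split between both antibodies were dropped, and no doublet caller was run. Counts were summed over cells of each pool and scaled to CPM, and genes with a mean of 50 CPM were compared by a 2-fold limit, with a sum under 3 UMIs set to 3. Shares have exact Clopper-Pearson and levels exact Poisson 95% intervals, which cover counting error only. Cells were thinned to 3000 UMIs where depths differed. Named genes were list members, the 10 genes furthest apart in each direction, the 10 with the largest ratio to other cells, the 10 most variable per pool, and the 5 furthest apart across the mural gate. The genes described by Hox UMIs were named after their values were seen. The members and the gene lists were chosen with earlier results of these data known. On simulated counts for 2947 genes of the comparison of pools, 100% of 200 genes changed 4-fold were recovered. These counts were Poisson sums with no spread between cells or cultures. Recovery was therefore near certain, and it checks the calculation only, not the reliability of the comparison. Python 3.11.15, numpy 2.4.6, scipy 1.17.1, pandas 2.3.3 and matplotlib 3.10.9 were used.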

Additional observations from a re-analysis of the deposited data

How the results depend on the processing

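With 1 pool per kind of culture, no replicate could be left out and no spread between replicates could be measured. No paired analysis was possible because the pools share no replicate numbers and no test was made. Across 15 alternatives, the ratios of 56 genes stayed within their counting interval 637 times, moved 194 times and changed sign 9 times, and list medians moved in 36 of their values while 294 did not. The share of collagen-rich cells was 5.75% in ORFTOC with a collagen limit of 0.5%, and 2.62% and 0.608% in ORFTOC and FTOC with a limit of 2%. It was 6.89% and 2.38% in ORFTOC and FTOC without cells with a T cell receptor contig. Those cells also left the total, and only 3 ORFTOC and 2 FTOC collagen-rich cells held a contig, so this rise reflects the smaller total. ORFTOC cells made up 89.0% of the collagen-rich cells with a hashtag limit of 90%, and 18.98% of ORFTOC cells passed the mural gate with a collagen limit of 2%. FTOC cells with a Hox UMI of groups 6 to 13 other than Hoxd8 numbered 0 without cells past the mural gate and 0 with at least 2 such UMIs. That last limit, chosen after seeing the data, gave 55 genes lower in ORFTOC cells with Hox UMIs. The genes higher in FTOC numbered 85 with a collagen limit of 0.5%, and those higher in ORFTOC 94 without cells past the mural gate, where only 12 FTOC cells were left. The counts higher in ORFTOC and in FTOC were 219 and 537 with a mean of 10 CPM, 12 and 27 with a mean of 200 CPM, and 114 and 270 in thinned cells. Log2 ratios changed sign without cells past the mural gate for A2m (0.29), Ccl5 (0.92), Inhba (-0.65) and Sfrp1 (0.47). They also did so with a collagen limit of 2% for Ccl5 (0.16) and Ifit1 (0.59), with a hashtag limit of 90% for Lcn2 (2.16), and without cells with markers of other classes for Cd74 (0.78) and Krt18 (0.068). Leaving out cells with Hox UMIs, keeping cells with Xist alone and leaving out cells with markers of other classes were also chosen after seeing the data. Apart from genes resting on 1 cell and the shares without T cell receptor contigs, the cause of these shifts was not tested. The 47 FTOC cells limit every comparison.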

Other observations

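Interferon response genes leaned toward FTOC, with 2 of 10 at least 2-fold lower in ORFTOC, none higher and a median log2 ratio of -0.66. Isg15, a ubiquitin-like protein, had 441 CPM in ORFTOC and 503 in FTOC. Ifit1 had 60.4 and 141 CPM, and its log2 ratio of -1.22 became 0.59 with a collagen limit of 2%. Of 9 imprinted growth genes, 1 was at least 2-fold apart, namely Cdkn1c, a cell cycle inhibitor, with 223 CPM in ORFTOC and 62.7 in FTOC. H19, a maternally expressed noncoding RNA, had 875 and 766 CPM. Among 7 genes linked to cultured and senescent fibroblasts, Cdkn1a and S100a4 were at least 2-fold higher in ORFTOC. Both were within 2-fold without the cells past the mural gate, at log2 ratios of 0.22 and 0.27. S100a4, a calcium-binding protein gene, had 112 and 42.3 CPM, and Vim, the intermediate filament of mesenchyme, had 2892 and 2014.

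All 9 immediate early genes, which respond within minutes to dissociation and other stimuli, were within 2-fold, with a median log2 ratio of -0.34. Fos had 2094 CPM in ORFTOC and 2369 in FTOC. All 7 genes that respond to low oxygen were within 2-fold as well, with a median of -0.10. A T cell receptor beta contig was found in 5 of the 280 collagen-rich cells (1.79%, 0.582% to 4.12%) and in 3.81% of the Epcam cells.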
